A study of Caenorhabditis elegans with 6 samples.

Results

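Sphingolipid synthesis and breakdown genes were followed in RNA from sorted cells of first larval stage (L1) Caenorhabditis elegans, a nematode worm. They were chosen by name, as sptl-1, sptl-2, sptl-3, hyl-1, hyl-2, lagr-1, cgt-1, cgt-3, sphk-1 and spl-1, and 10 of 10 were found among the 14605 worm gene rows of the deposited count table. The study has 3 libraries of intestinal and 3 of non-intestinal cells, each from a pool of 500 cells with a 4N DNA content. All 6 share 1 genotype, with the transgene ccyIS27. In it the promoter of the gut gene elt-2 (elt-2p) drives mCherry-PH, joined by P2A to H2B-mCherry, so both groups carry the reporter. The libraries were made by an adapted form of CEL-seq, which reads mainly the end of each transcript next to its poly(A) tail. The labels do not say which cell types the non-intestinal pools hold, and in such pools fewer cells of a type and less RNA per cell cannot be told apart.

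Sphingolipids are membrane lipids built on a long-chain base. Serine palmitoyltransferase joins serine to a fatty acyl-CoA to start the base, ceramide synthases add a second fatty acid to give ceramide, and ceramide glucosyltransferases add glucose to ceramide. In the opposite direction, ceramide is cut to release sphingosine, sphingosine kinase makes sphingosine-1-phosphate, and sphingosine-1-phosphate lyase breaks this down irreversibly. Worm sphingolipids are unusual in that their base is methyl-branched, and in the worm intestine glycosphingolipids are known to be needed for keeping the apical membrane in place.

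Libraries held between 1222704 and 21040813 worm gene counts, and replicate 3 was the shallowest of each group. Levels are given as CPM, counts per 1e6 counts of the TMM-scaled library size. Where nothing was counted, up to 3 counts remain possible from counting error alone, or from 0.136 to 2.40 CPM depending on the library. The labels were checked on 8 intestinal markers, whose summed level lay between 6076 and 6877 CPM in intestinal libraries and between 42.9 and 167 CPM in non-intestinal ones. Intestinal replicates 1, 2 and 3 had 42.6, 38.1 and 59.3 CPM of elt-2 itself, and the non-intestinal ones 0.16, 1.73 and 0 CPM. Markers of other cells were also present. The sum of 6 germline markers was 11.2 to 51.0 CPM in intestinal and 669 to 776 CPM in non-intestinal libraries. For 3 pharynx markers the sums were 36.9 to 581 CPM and 721 to 905 CPM, with the lowest value in intestinal replicate 3. For 5 muscle markers they were 739 to 1947 CPM and 937 to 3080 CPM, and myo-3 was at 0 in all 3 intestinal libraries and at 1 count at most elsewhere. The sums were 8.81 to 109 and 348 to 433 CPM for 5 epidermal markers. For 5 neuronal markers they were 224 to 715 and 319 to 366 CPM, and egl-21 among them was called higher in intestinal cells. The part of these other cells in the results below was not tested.

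The sphingolipid genes were mostly more abundant in intestinal cells. Their summed level lay between 1087 and 1754 CPM in intestinal libraries and between 174 and 276 CPM in non-intestinal ones. The 3 serine palmitoyltransferase genes rose from 11.9-fold to 18.7-fold, the glucosyltransferase cgt-1 9.94-fold, and hyl-2, spl-1 and cgt-3 from 6.38-fold to 6.94-fold. The kinase sphk-1 and the ceramide synthase hyl-1 did not pass the test, and lagr-1, with 5 counts over the intestinal libraries and at most 60 in a non-intestinal one, was not tested. Of the 9 genes that passed the filter on low counts, edgeR called 7 higher in intestinal cells and 0 lower at an adjusted p under 0.05. Over the whole table, 13.5% of 9203 tested genes were called higher and 7.64% lower, 21.2% in all. In numbers these were 1246 higher and 703 lower, and scaling by library totals alone gave 1062 and 1337, with the count of sphingolipid genes still at 7 higher and 0 lower. At an unadjusted p under 0.05 edgeR had 8 of the sphingolipid genes higher and 0 lower. The share of all tested genes under that looser threshold was not determined, so this number cannot be set against it. After adjustment DESeq2 also had 8 higher and 0 lower, where it called 17.4% of its tested genes higher and 13.5% lower, 31% in all. On the log2 scale the median fold change of these 9 was 2.79, against −0.34 over all tested genes. With scaling by library totals alone each of the 9 had a smaller fold change, and these medians were 2.37 and −0.84. For 8 of the 9 every intestinal library lay above every non-intestinal one, as for 21.9% of all tested genes. The filter passes a gene that is high in 1 group alone, so these counts describe the genes and lend no weight of their own.

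The number of calls moved with the libraries used. Without intestinal replicate 1, 2 or 3, edgeR called 5, 6 and 7 of the sphingolipid genes higher, where 8.74%, 11% and 12.7% of all tested genes were called higher. Without non-intestinal replicate 1, 2 or 3 the numbers were 6, 7 and 8, where the shares were 10.5%, 12.8% and 13.2%. With the replicate number as a block the number was 8, where 15.1% of all tested genes were called higher and 9.86% lower, 25% in all.

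**Figure D1:**
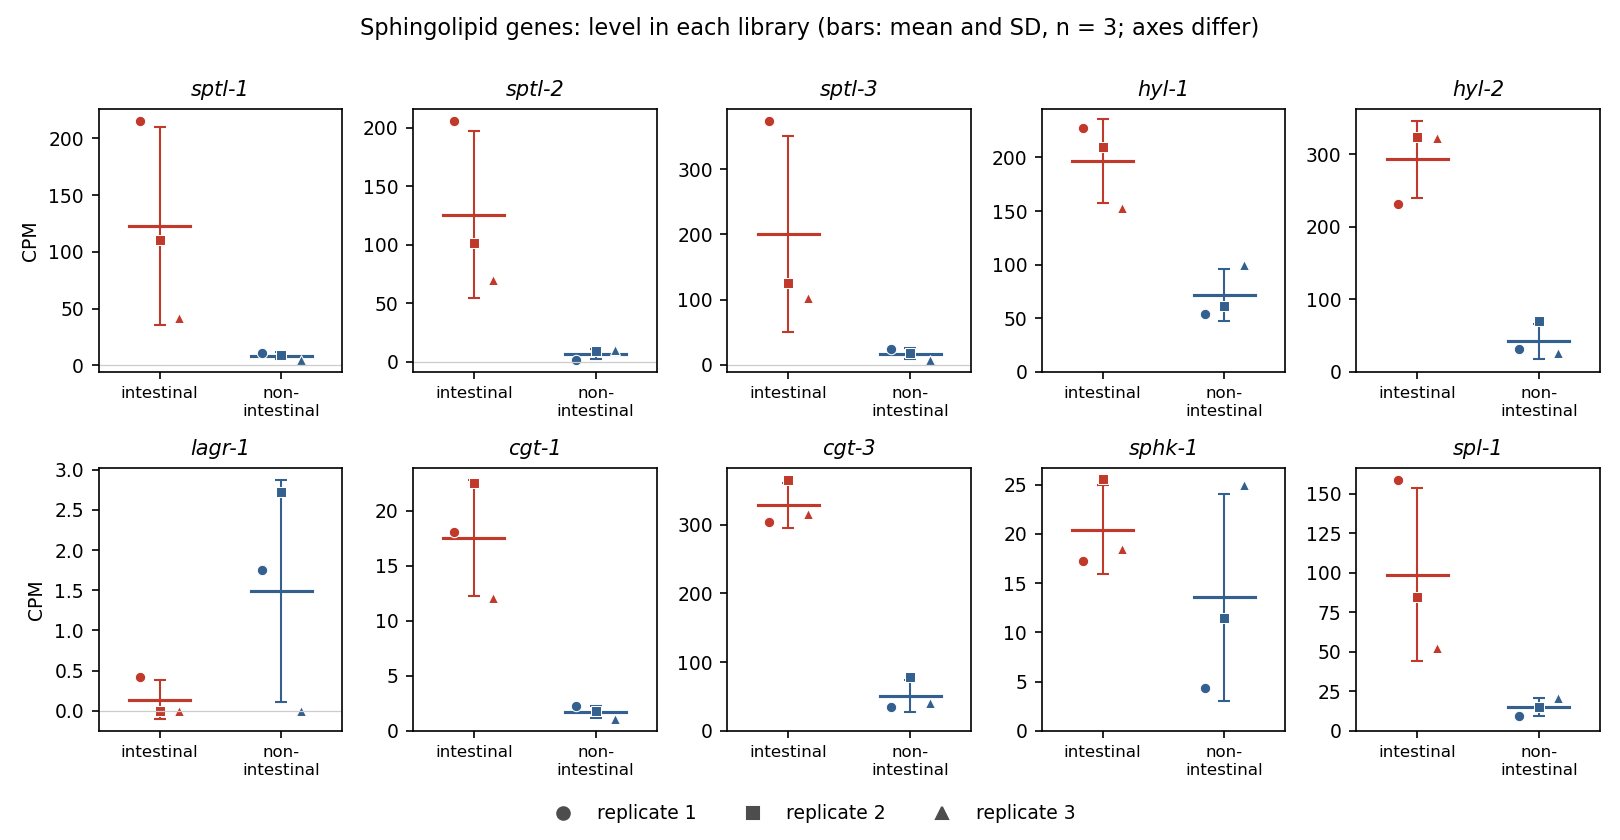
Level of each sphingolipid gene in CPM (vertical axis, a separate scale for each gene) in the intestinal libraries (red) and non-intestinal libraries (blue); symbols give the replicate number, bars the mean and SD of 3 libraries. The groups are apart for 8 genes, overlap for sphk-1, and lagr-1 lies at 2.73 CPM or below in all 6 libraries.

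The 3 serine palmitoyltransferase genes encode subunits of the enzyme that commits serine to the pathway. The gene sptl-1 (C23H3.4; WBcel235 chromosome II, 51652 to 57570, plus strand) encodes the subunit that all forms of the enzyme share, and its loss is known to disturb the lumen of the worm intestine. Intestinal replicates 1, 2 and 3 held 215, 111 and 41.7 CPM of sptl-1, against 11.0, 9.27 and 4.89 CPM in the non-intestinal ones. The groups were apart, the lowest intestinal library being 3.79 times the highest non-intestinal one. The means were 123 ± 87.5 and 8.39 ± 3.15 CPM (SD, n = 3 each), and edgeR put the log2 fold change at 3.85 (SE 0.77) with an adjusted p of 0.0059. The gene tre-5 overlaps sptl-1 on the opposite strand but not in its last exon, and no library held more than 0.82 CPM of it.

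The genes sptl-2 (F43H9.2; chromosome V, 8017207 to 8021715, plus strand) and sptl-3 (T22G5.5; chromosome V, 13893325 to 13896415, plus strand) encode the alternative partner subunits. Intestinal replicates 1, 2 and 3 held 206, 102 and 69.7 CPM of sptl-2, against 1.75, 8.95 and 9.79 CPM in the non-intestinal ones. These groups did not overlap, and non-intestinal replicate 1 was lowest, with 11 counts. By edgeR its log2 fold change was 4.23 (SE 0.83), with an adjusted p of 0.0055, the highest fold change among the tested sphingolipid genes. Of sptl-3 the intestinal replicates held 375, 126 and 102 CPM and the non-intestinal ones 23.9, 18.4 and 7.61 CPM. Again the groups were apart, and intestinal replicate 1 was 3.68 times the lowest of its group. By edgeR its log2 fold change was 3.58 (SE 0.73), with an adjusted p of 0.0068.

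Each of the 3 subunit genes was called in 6 of 6 fits that left out 1 library. The smallest fold changes came without intestinal replicate 1, where edgeR gave log2 values of 3.19 for sptl-1, 3.69 for sptl-2 and 2.78 for sptl-3, with adjusted p from 0.027 to 0.038. The highest were 4.28 for sptl-1 without intestinal replicate 3, 4.83 for sptl-2 without non-intestinal replicate 2 and 4.07 for sptl-3 without non-intestinal replicate 1.

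Of the ceramide synthases, hyl-2 rose and hyl-1 missed the threshold. The genes hyl-1 (C09G4.1; chromosome IV, 8539123 to 8544412, plus strand) and hyl-2 (K02G10.6; chromosome X, 4696754 to 4699461, minus strand) encode enzymes that prefer fatty acids of different length, and worms without hyl-2 are sensitive to lack of oxygen. Intestinal replicates 1, 2 and 3 held 231, 324 and 323 CPM of hyl-2, against 30.9, 69.3 and 25.5 CPM in the non-intestinal ones. The groups were apart, the lowest intestinal library being 3.33 times the highest non-intestinal one. The means were 293 ± 53.5 and 41.9 ± 23.9 CPM (SD, n = 3 each), and edgeR put the log2 fold change at 2.79 (SE 0.57) with an adjusted p of 0.0064. It was called in 6 of 6 fits that left out 1 library, from 2.74 without intestinal replicate 3 to 3.73 without non-intestinal replicate 2.

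Of hyl-1 the intestinal replicates held 228, 210 and 153 CPM and the non-intestinal ones 53.9, 61.7 and 99.5 CPM. The groups were apart, but the libraries numbered 3 lay close, with a fold of 1.54 against 4.23 for number 1 and 3.41 for number 2. The log2 fold change was 1.46 (SE 0.51), with a 95% interval from 0.34 to 2.59 and an edgeR adjusted p of 0.064. With the replicate number as a block hyl-1 was called, at an edgeR adjusted p of 0.042. It was also called with RLE size factors (edgeR adjusted p = 0.042) and by DESeq2 (adjusted p = 0.0081). Under scaling by library totals alone the log2 fold change of hyl-1 was 0.96 and not called (edgeR adjusted p = 0.16). Nor was hyl-1 called with no filter (edgeR adjusted p = 0.097) or without robust estimation (edgeR adjusted p = 0.061). Without non-intestinal replicate 3 the log2 fold change was 2.00 (edgeR adjusted p = 0.031), and without both libraries numbered 3 it was 1.93 (edgeR adjusted p = 0.027). Leaving out any of the other 5 libraries did not bring the call.

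A further ceramide synthase gene, lagr-1 (Y6B3B.10; chromosome I, 13724577 to 13732046, minus strand), was counted little. Intestinal libraries 1, 2 and 3 had 5, 0 and 0 counts of it, against 11, 60 and 0 for the non-intestinal ones. As CPM this was 0.42, 0 and 0 against 1.75, 2.73 and 0. It did not pass the filter on low counts and has no value in the reported fit. More than 5 counts were seen in non-intestinal replicates 1 and 2 alone, and a difference was not detectable in the libraries numbered 3, where a count of 0 allows up to 2.40 and 1.63 CPM. DESeq2, which tested it, gave an adjusted p of 0.39.

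The ceramide glucosyltransferases make glucosylceramide, the base of the worm glycosphingolipids. The gene cgt-3 (F59G1.1; chromosome II, 5911324 to 5916910, plus strand) had 304, 365 and 315 CPM in the intestinal libraries 1, 2 and 3, and 35.1, 77.9 and 40.8 CPM in the non-intestinal ones. No values overlapped, and the intestinal ones lay closest together among the 10 genes, with an SD of 9.99% of the mean (n = 3). By edgeR its log2 fold change was 2.67 (SE 0.52), with an adjusted p of 0.0052. It was called in 6 of 6 fits that left out 1 library, from 2.62 without intestinal replicate 2 to 3.46 without non-intestinal replicate 2.

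The gene cgt-1 (T06C12.10; chromosome V, 15886719 to 15888851, minus strand) was lower, at 18.0, 22.5 and 12.0 CPM in the intestinal libraries and 2.23, 1.82 and 1.09 CPM in the non-intestinal ones, the last from 2 counts. A factor of 5.39 separated the groups. By edgeR its log2 fold change was 3.31 (SE 0.90), with an adjusted p of 0.025. The call was lost without intestinal replicate 1, intestinal replicate 2 or non-intestinal replicate 1, where edgeR gave an adjusted p of 0.091, 0.095 and 0.052. The log2 fold change there was 3.32, 3.13 and 3.70, close to the reported value or above it.

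Sphingosine-1-phosphate, a signalling lipid, is made by the kinase and removed by the lyase. The lyase gene spl-1 (Y66H1B.4; chromosome IV, 379885 to 383185, minus strand) is known to be active in the worm gut. Intestinal replicates 1, 2 and 3 held 159, 84.9 and 52.1 CPM of it, against 9.40, 14.9 and 20.7 CPM in the non-intestinal ones. The groups were apart, with a fold of 16.9, 5.70 and 2.52 between libraries numbered 1, 2 and 3. By edgeR its log2 fold change was 2.73 (SE 0.68), with an adjusted p of 0.017. Without intestinal replicate 1 it was 2.23 and no longer called (edgeR adjusted p = 0.090).

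The kinase gene sphk-1 (C34C6.5; chromosome II, 8699012 to 8701669, minus strand) has a known role at worm synapses. It stood at 17.2, 25.6 and 18.4 CPM in the intestinal libraries and at 4.30, 11.5 and 25.01 CPM in the non-intestinal ones. The groups overlapped, since non-intestinal replicate 3 stood above intestinal replicates 1 and 3. The log2 fold change was 0.61 (SE 0.81), with a 95% interval from −1.18 to 2.40 and an edgeR adjusted p of 0.63. It was called in 0 of the 6 fits that left out 1 library, where the values ran from 0.43 without intestinal replicate 2 to 1.56 without non-intestinal replicate 3. The interval is wide, so the data do not show that sphk-1 was equal in the groups. Whether its fold change differs from that of spl-1 was not tested.

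**Figure D2:**
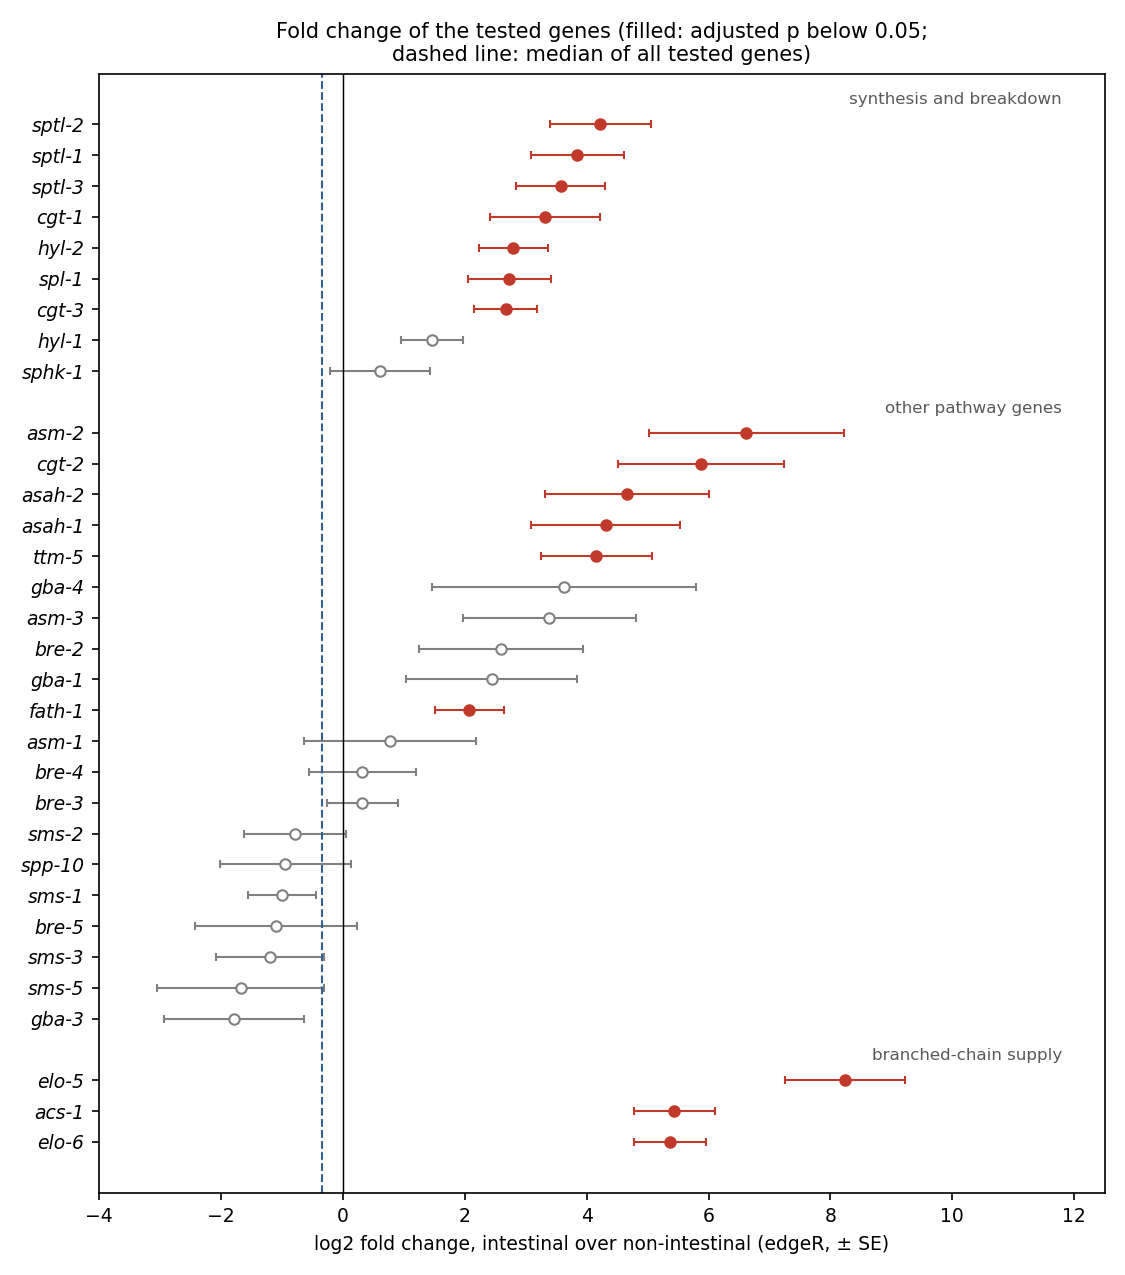
Log2 fold change of intestinal over non-intestinal libraries (horizontal axis, edgeR estimate with SE) for the tested genes of the 3 groups named in the plot; filled red points have an adjusted p below 0.05 and the dashed line is the median of all tested genes, −0.34. Of the sphingolipid genes 7 of 9 are filled, and the fitted values of cgt-2, asm-2 and gba-4 are no sizes, since their non-intestinal libraries had 3 counts at most.

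The non-intestinal level was also taken as a share of the intestinal level, leaving out lagr-1 with its 5 intestinal counts. Non-intestinal means were 5.42% of the intestinal mean for sptl-2, 6.84% for sptl-1, 8.29% for sptl-3 and 9.77% for cgt-1. They were 14.3% for hyl-2, 15.2% for spl-1, 15.6% for cgt-3, 36.4% for hyl-1 and 66.6% for sphk-1. For the summed intestinal markers, a sum made up mostly of act-5 and ifb-2, the share was 1.92%. These shares describe group means, and no difference between them was tested.

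The balance between related enzymes was examined within each library, where library size and scaling cancel. In all, 4 pairs were compared, and 3 libraries against 3 cannot give an exact permutation p below 0.1. The log2 ratio of hyl-2 to hyl-1 counts was 0.02, 0.63 and 1.08 for intestinal libraries 1, 2 and 3, against −0.80, 0.17 and −1.95 for the non-intestinal ones. The groups overlapped, since non-intestinal replicate 2 lay above intestinal replicate 1, although the intestinal ratio was the higher one within each of the 3 replicate numbers. By an exact two-sided permutation test the mean difference of 1.43 had a p of 0.2, adjusted 0.4. As a share of the ceramide synthase counts, hyl-2 made up 59.6 ± 8.82% of intestinal and 36.0 ± 15.7% of non-intestinal counts (SD, n = 3 each). Without both libraries numbered 3 the log2 difference was 0.64.

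The share of cgt-1 in the counts of cgt-1 and cgt-3 was 5.03 ± 1.17% for intestinal and 3.62 ± 2.05% for non-intestinal libraries (SD, n = 3 each). Its log2 ratio to cgt-3 differed by 0.50 (exact two-sided permutation p = 0.4, adjusted 0.53), and the groups overlapped. For sptl-3 against sptl-2 the log2 ratio was 0.86, 0.31 and 0.54 for intestinal libraries 1, 2 and 3, against 3.71, 1.04 and −0.35 for the non-intestinal ones. The intestinal values thus lay inside the range of the non-intestinal ones (difference −0.90, exact two-sided permutation p = 0.7, adjusted 0.7). Without non-intestinal replicate 1, where sptl-2 had 11 counts, the difference was 0.23. For lagr-1 against hyl-1 it was −4.16 (exact two-sided permutation p = 0.1, adjusted 0.4). That value rests on libraries with 0 counts of lagr-1, whose ratio is set by the depth and by the 0.5 added to each count. Related genes can share reads, and how the counting divided these is not given in the sources used here.

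**Figure D3:**
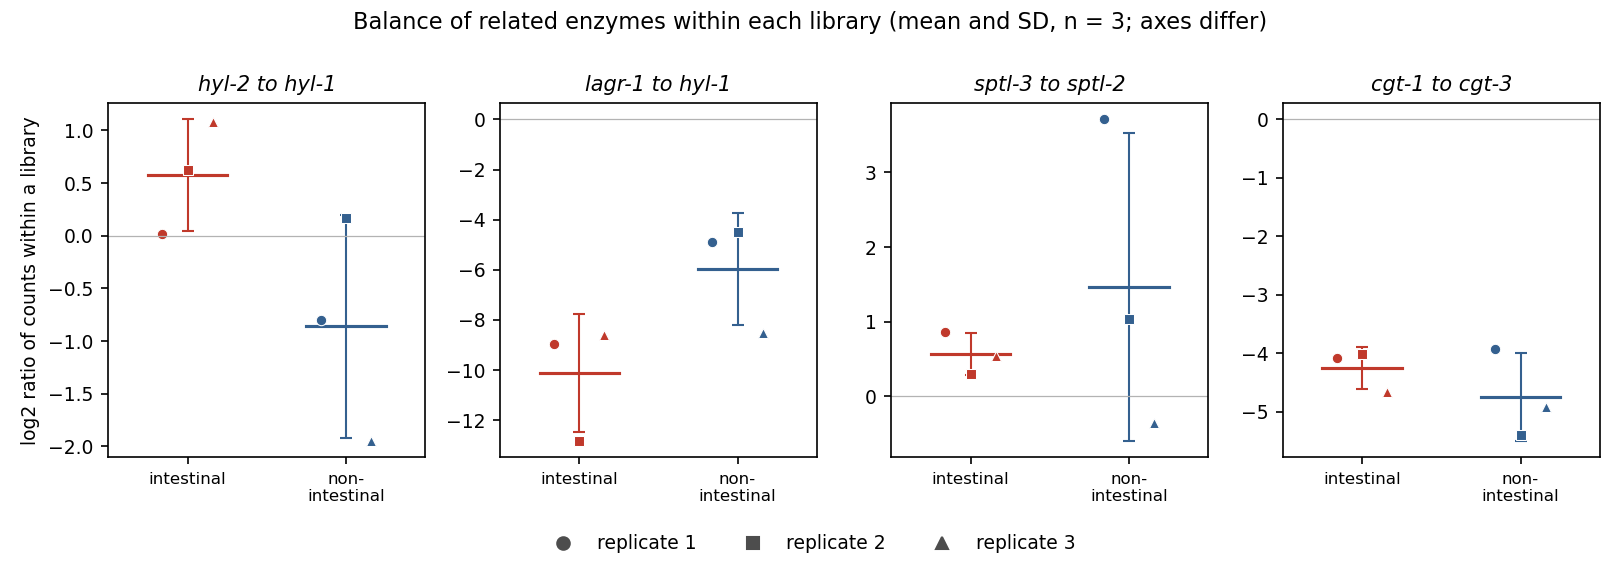
Log2 ratio of the counts of 2 related genes within a library (vertical axis, 0.5 added to each count, a separate scale for each pair), for intestinal (red) and non-intestinal (blue) libraries; symbols give the replicate number, bars the mean and SD of 3 libraries. The groups overlap for 3 of the 4 pairs, and for lagr-1 to hyl-1 the values of the 2 groups nearly touch at −8.58 and −8.52.

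Inside the intestinal group the genes differed in how much they varied. The intestinal coefficient of variation (SD over mean, n = 3) was 71.4% for sptl-1, 56.6% for sptl-2, 75.2% for sptl-3 and 55.5% for spl-1. It was 19.8% for hyl-1, 18.3% for hyl-2, 9.99% for cgt-3, 22.2% for sphk-1 and 30.1% for cgt-1. In TMM-scaled CPM the first 4 of these genes and hyl-1 were highest in replicate 1 and lowest in replicate 3. For hyl-1 this order depends on the scaling, since by library totals alone replicate 2 was highest. The median coefficient over the 1548 tested genes with an intestinal mean of at least 100 CPM was 33.8%, and 53.2% of those were highest in intestinal replicate 1. The intestinal genes act-5 and ifb-2 varied by 9.82% and 21.2%. The summed pharynx and muscle markers were likewise highest in intestinal replicate 1 and lowest in replicate 3. These sums were 581 and 36.9 CPM for pharynx and 1947 and 739 CPM for muscle. The summed epidermal, neuronal and germline markers were instead highest in intestinal replicate 2, at 109, 715 and 51.0 CPM. So were the single pharynx marker tnt-4 and the muscle markers unc-22 and hlh-1. The part of these other cells in this spread was not tested.

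**Figure D4:**
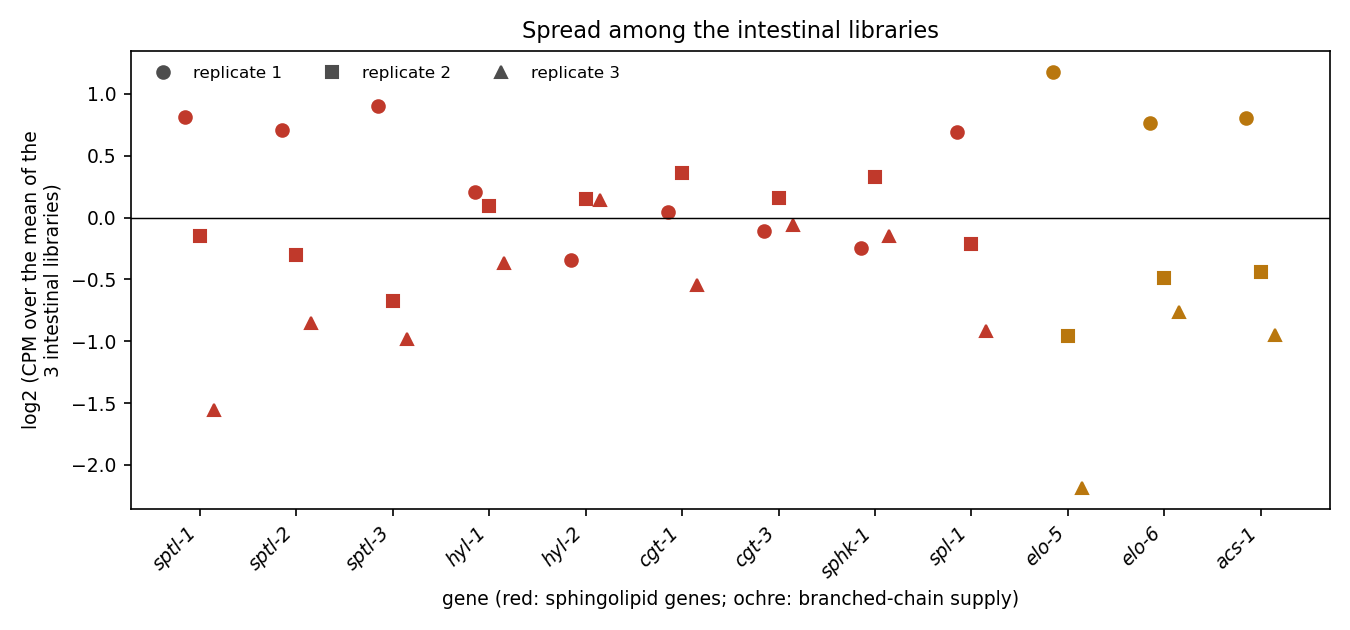
Log2 of the CPM in each intestinal library over the mean of the 3 intestinal libraries (vertical axis), for 9 sphingolipid genes (red) and 3 genes of branched-chain fatty acid supply (ochre); symbols give the replicate number. The 3 serine palmitoyltransferase genes, hyl-1, spl-1 and the 3 supply genes are highest in replicate 1 and lowest in replicate 3, whereas hyl-2, cgt-3 and sphk-1 are lowest in replicate 1. The orders of hyl-1 and elo-6 are different by library totals alone.

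The rest of the pathway was read from a list of 21 other sphingolipid genes, of which 20 were tested. Of these, edgeR called 6 higher in intestinal cells and 0 lower, and 14 were not called, against the same 13.5% and 7.64% over all tested genes. At an unadjusted p under 0.05, again without a share over all tested genes, it had 7 higher and 0 lower. After adjustment DESeq2 had 7 higher and 0 lower, where it called 17.4% of its tested genes higher and 13.5% lower. The median log2 fold change of the 20 was 1.43, against −0.34 over all tested genes. Without intestinal replicate 1 edgeR called 1 of 18 tested pathway genes higher, asm-2, where 8.74% of all tested genes were called higher. Without intestinal replicate 2 the number was 3 of 16 (all tested genes 11%), and without intestinal replicate 3 it was 7 of 21 (12.7%). Without non-intestinal replicate 1, 2 or 3 it was 4 of 21, 5 of 19 and 7 of 21, where the shares were 10.5%, 12.8% and 13.2%.

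Some genes that shape or use ceramide were among those that rose. The dihydroceramide desaturase gene ttm-5 was at 47.1, 24.8 and 11.2 CPM in the intestinal libraries 1, 2 and 3, and at 1.43, 1.95 and 1.09 CPM in the non-intestinal ones. Its log2 fold change was 4.16 (SE 0.92), at an edgeR adjusted p of 0.0095. The fatty acid 2-hydroxylase gene fath-1 was at 326, 247 and 198 CPM against 65.4, 89.6 and 27.7 CPM. Its log2 fold change was 2.07 (SE 0.57), at an edgeR adjusted p of 0.025, and under scaling by library totals alone it was 1.56 and not called (edgeR adjusted p = 0.052). A further glucosyltransferase gene, cgt-2, was counted 333, 179 and 5 times in the intestinal libraries and 3, 3 and 0 times in the non-intestinal ones. With 517 counts against 6, the ratio per scaled library size was 84.7, with a 95% exact counting interval from 38.7 to 232 (edgeR adjusted p = 0.012). Without intestinal replicate 1 that ratio was 49.6, with an interval from 22.4 to 137. Both intervals cover counting error only and leave out the spread between libraries, so they are too narrow for the difference between the groups. For these 3 genes the groups were apart and the intestinal level was again highest in replicate 1 and lowest in replicate 3. Without intestinal replicate 1 none of the 3 was called (edgeR adjusted p from 0.073 to 0.096), nor was fath-1 without intestinal replicate 2 (edgeR adjusted p = 0.051).

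Acid ceramidase genes, whose products release the long-chain base from ceramide, rose as well. The gene asah-1 was counted 394, 1903 and 16 times in the intestinal libraries and 2, 136 and 1 times in the non-intestinal ones. Its log2 fold change was 4.32 (SE 1.22), at an edgeR adjusted p of 0.029. For asah-2 the counts were 232, 658 and 22 against 0, 52 and 0, and the log2 fold change was 4.66 (SE 1.34), at an edgeR adjusted p of 0.031. In CPM the groups were apart for both, and non-intestinal replicate 2 held most of the non-intestinal counts. Without it, 2 and 1 non-intestinal counts of asah-1 and none of asah-2 were left, and both genes were called (edgeR adjusted p = 0.0081 and 0.0056), with no size that could be read. Both calls were lost without intestinal replicate 1 (edgeR adjusted p = 0.053 and 0.068, with log2 fold changes of 4.60 and 4.86) and without intestinal replicate 2 (edgeR adjusted p = 0.11 and 0.083, with 3.21 and 4.31). That of asah-1 was also lost without non-intestinal replicate 1 (edgeR adjusted p = 0.052).

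Acid sphingomyelinases cut sphingomyelin to ceramide, and 1 of their 3 genes rose. The gene asm-2 was counted 36, 87 and 5 times in the intestinal libraries and 0, 1 and 0 times in the non-intestinal ones. With 128 counts against 1, the ratio was 126, with a 95% exact counting interval from 22.2 to 5009, which covers counting error only (edgeR adjusted p = 0.015). It lost the call without non-intestinal replicate 1 or 2 (edgeR adjusted p = 0.074 and 0.059). For asm-3 the counts were 120, 374 and 0 against 3, 32 and 2, with a log2 fold change of 3.39 that was not called (edgeR adjusted p = 0.12). It was called by DESeq2 (adjusted p = 0.035), without intestinal replicate 3 (edgeR adjusted p = 0.025) and without both libraries numbered 3 (edgeR adjusted p = 0.026). For asm-1 the log2 fold change was 0.78 (edgeR adjusted p = 0.72).

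The sphingomyelin synthase family, which transfers a phosphocholine head group to ceramide, was not called in either direction. Its 4 tested genes had negative log2 fold changes. The gene sms-1 was at 75.1, 65.2 and 33.7 CPM in the intestinal libraries 1, 2 and 3, and at 87.8, 111 and 152 CPM in the non-intestinal ones. The non-intestinal libraries were thus all above the intestinal ones. The 95% interval of its log2 fold change ran from −2.23 to 0.23 (edgeR adjusted p = 0.23). Under scaling by library totals alone the log2 fold change was −1.54 and called (edgeR adjusted p = 0.0499), a scaling under which the median of all tested genes was −0.84. The log2 fold changes of sms-2, sms-3 and sms-5 were −0.78, −1.20 and −1.68 (edgeR adjusted p from 0.36 to 0.54), and their groups overlapped.

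Glucosylceramidase genes encode products that remove glucose from glucosylceramide, and none of those tested was called in the reported fit. The gene gba-1 was counted 262, 386 and 8 times in the intestinal libraries and 0, 25 and 17 times in the non-intestinal ones, which gave 2.44 on the log2 scale (edgeR adjusted p = 0.25). It was called without non-intestinal replicate 3 (edgeR adjusted p = 0.031) and without both libraries numbered 3 (edgeR adjusted p = 0.025). For gba-3 the log2 fold change was −1.78 (edgeR adjusted p = 0.30). For gba-4, with 78 intestinal counts against 2, it was positive, with no size that could be read (edgeR adjusted p = 0.26). The gene gba-2 did not pass the filter. The genes bre-2, bre-3, bre-4 and bre-5 extend the sugar chain of glycosphingolipids. Their log2 fold changes were 2.59, 0.32, 0.32 and −1.09 (edgeR adjusted p from 0.20 to 0.82). The saposin-like gene spp-10 was at −0.94 (edgeR adjusted p = 0.56).

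For the methyl-branched fatty acids that feed the worm sphingoid base 4 genes were listed, and 3 were found among the worm gene rows. Of the 3 found, edgeR called 3 higher in intestinal cells, against 13.5% of all tested genes. The list was chosen with earlier results of these data known, so this count lends no weight of its own. The elongase gene elo-5 was at 2393, 543 and 232 CPM in the intestinal libraries 1, 2 and 3, and at 4.30, 3.23 and 2.72 CPM in the non-intestinal ones. Its intestinal libraries differed by a factor of 10.3, yet the lowest was 53.8 times the highest non-intestinal one. The log2 fold change was 8.24 (SE 0.98), at an edgeR adjusted p of 0.00060. The elongase gene elo-6 was at 2238, 937 and 778 CPM against 37.6, 35.6 and 21.7 CPM, with a log2 value of 5.37 (SE 0.59, edgeR adjusted p = 0.00042). The acyl-CoA synthetase gene acs-1 was at 661, 279 and 196 CPM against 7.65, 10.2 and 8.15 CPM, with a log2 value of 5.44 (SE 0.66, edgeR adjusted p = 0.00060). Each was called in 6 of 6 fits that left out 1 library. Without intestinal replicate 1 the log2 fold changes were 6.83 for elo-5, 4.78 for elo-6 and 4.79 for acs-1. All 3 were highest in intestinal replicate 1 and lowest in replicate 3, as were the serine palmitoyltransferase genes. By library totals alone elo-6 was instead lowest in intestinal replicate 2.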

How the data were processed

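The authors deposited 1 table of raw counts per gene row and library, in whole numbers with no normalization. The submitters' processing notes name STARsolo 2.7.10a and the builds WBcel235 and ce11. The annotation, strand use and use of molecular identifiers are not given in the sources used here, so counts may include amplification copies. The table had 15472 rows, of which 14605 worm gene rows entered totals and tests. The other rows took 0.377% to 0.796% of a library. Symbols came from RefSeq locus tags of WBcel235, in which 14387 rows were found, and positions from the Ensembl annotation of that assembly. Every column belonged to a labelled sample. The gene let-767, listed with the branched-chain supply genes, was not found among the worm gene rows and was not analysed here.

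All 9203 genes passing filterByExpr (minimum count 10, total 15) were tested with edgeR 4.0.16 in R 4.3.3 by the quasi-likelihood F test, with TMM scaling, robust estimation and group as the only term, and Benjamini-Hochberg adjustment at 0.05. CPM used TMM-scaled sizes. Alternatives were DESeq2 1.42.0, RLE size factors, library totals alone, no filter, no robust estimation, the replicate number as a block, an adjusted p under 0.01, a pseudocount of 1 in the ratios, and leaving out each library or both libraries numbered 3. The genes named were the 10 sphingolipid genes and those of the 2 pathway lists, with markers and neighbouring genes where a result touches them, the latter chosen after their values were seen. The members and lists were chosen with earlier results of these data known.

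Replicate numbers 1, 2 and 3 occur in both groups. Deviations from the group mean correlated at 0.278, 0.157 and 0.279 for libraries of the same number, and at −0.256 to 0.069 for those of different number. The numbers may thus pair libraries, although the labels name no shared preparation. Replicate 3 was also the shallowest of each group, and the part of depth in these correlations was not tested. The reported fit and ratio tests are unpaired, and the blocked value is given where it changes a call. Replicates of a group differed by more than counting noise (chi-square per degree of freedom 33.9 to 206). The labels call them biological replicates, without naming separate cultures, so p-values measure the spread between these libraries.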

Additional observations from a re-analysis of the deposited data

Results flagged for a closer look

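The reporter row lies outside the comparisons of the report. It held 243 counts over the 3 intestinal libraries (147, 92 and 4) and 1 count over the 3 non-intestinal libraries. Both groups carry the transgene, so the non-intestinal libraries are no control without the reporter. With 3 libraries per group, single outlying libraries were not tested for.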

How the results depend on the processing

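The number of sphingolipid genes called higher was 7 in the reported fit and from 5 to 8 under the alternatives, and 0 were called lower under each of them. Of 117 values of single sphingolipid genes under the alternatives other than the stricter threshold, 108 kept direction and side of the threshold, 5 gained a call (hyl-1 each time), 4 lost one (cgt-1 in 3 and spl-1 in 1) and 0 changed sign. At an adjusted p under 0.01, 5 remained called higher, without cgt-1 and spl-1. With the replicate block 8 were called higher, hyl-1 being the 1 changed call, and it changed no other call among the sphingolipid genes. The table as a whole moved more: 1949 genes were called, against 3280 by DESeq2 and 842 at an adjusted p under 0.01, and from 986 (without intestinal replicate 1) to 1913 when 1 library was left out. With the block the total was 2300. The median of all tested genes ranged from −0.84 (library totals alone) to 0.06 (without non-intestinal replicate 2).

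Leaving out 1 library, the log2 ratio difference ran from −1.80 to 0.23 for sptl-3 to sptl-2, with the sign change without non-intestinal replicate 1, which held 11 counts of sptl-2; the cause was not tested. It ran from 0.89 to 1.95 for hyl-2 to hyl-1, from −5.44 to −2.81 for lagr-1 to hyl-1 and from 0.17 to 0.91 for cgt-1 to cgt-3. Pairing libraries by number leaves these differences as they are, with exact sign-flip p of 0.25, 0.25, 0.75 and 0.5 for hyl-2, lagr-1, sptl-3 and cgt-1, where 0.25 is the smallest possible. Depth limits what can be read for lagr-1, which had 0 counts in both libraries numbered 3.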

Other observations

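The coding genes that follow 2 of the serine palmitoyltransferase genes were looked at after their values had been seen. The gene ech-3, which starts 501 bp after the end of sptl-2 on the same strand, was at 55.3, 30.7 and 36.9 CPM in the intestinal libraries 1, 2 and 3, and at 3.98, 2.41 and 0.54 CPM in the non-intestinal ones. Its log2 value was 4.06 (SE 0.86, edgeR adjusted p = 0.0083). The cytochrome P450 gene cyp-35C1, whose end lies 247 bp from the end of sptl-3 on the other strand, was at 76.1, 131 and 79.3 CPM against 0, 0.95 and 0.54 CPM, with a log2 value of 7.39 (SE 1.06, edgeR adjusted p = 0.0011). The genes ascc-1, 99 bp after sptl-1, and chdh-1, 83 bp after sphk-1, were not called, with log2 fold changes of 0.72 and 1.18 (edgeR adjusted p = 0.59 and 0.34). Also not called were frh-1, 511 bp after cgt-3 on the same strand, and npr-22, 15019 bp after hyl-1. Their log2 fold changes were 2.18 and −1.12 (edgeR adjusted p = 0.27 and 0.62). The gene K02G10.5, which follows hyl-2, did not pass the filter.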
